A study of Homo sapiens with 36 samples.

Results

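The genes described here are 9 components of the tight junction, taken by symbol: the claudins CLDN1, CLDN3, CLDN4, CLDN7 and CLDN12, occludin (OCLN), junctional adhesion molecule A (F11R), and the scaffold proteins ZO-1 (TJP1) and ZO-3 (TJP3). They were 9 of the 58243 genes counted by RNA sequencing. The 36 libraries came from the PANC-1, MIA PaCa-2 and BxPC-3 cell lines, all derived from human pancreatic ductal adenocarcinoma. Each line was exposed for 48 h to GW3965, an agonist of the liver X receptors (LXR), to 1E5 or to 3A4, both called LXR inverse agonists in the labels, each at 10 µM, or to the vehicle DMSO, with 3 libraries in each of the 12 groups. BxPC-3 was cultured in RPMI 1640 and both other lines in DMEM, so line and medium cannot be told apart. Each line stands for 1 tumour and was sequenced as bulk RNA, in which fewer cells with a transcript and less transcript per cell cannot be told apart. The titles call the libraries biological replicates without naming separate cultures, and the p-values then reflect only how far these libraries differ from each other.

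Tight junctions join neighbouring epithelial cells near their apical border and limit what passes between them. Claudins are the membrane proteins that form the strands, and their mixture sets how tight a layer is and which ions it lets through. CLDN1, CLDN3, CLDN4 and CLDN7 are counted among the sealing claudins, whereas CLDN12 lacks the carboxy-terminal motif by which most claudins bind the scaffold. OCLN and F11R are membrane proteins of the same structure. TJP1 and TJP3 lie beneath the membrane and connect claudins and occludin to the actin skeleton. LXR are nuclear receptors for oxysterols that drive genes of cholesterol efflux and fatty acid synthesis.

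Library totals were 14960970 to 26026684 counts in PANC-1 and 19605935 to 25888304 in BxPC-3. In MIA PaCa-2 the totals were uneven, with 2701393 to 13631719 counts in GW3965 libraries, 23675670 to 25503827 in 1E5 libraries, 8889927 to 24588097 in 3A4 libraries and 3609582 to 10996848 in DMSO libraries. PANC-1 1E5 replicate 2 stood apart from the other libraries of its group, with 6.589% of its counts from mitochondrially encoded genes against 2.689% and 3.907% in replicates 1 and 3. Calls on the 9 genes that change without it are given both ways. The epithelial markers CDH1, EPCAM and GRHL2 were all present in BxPC-3. In MIA PaCa-2 with DMSO, EPCAM and GRHL2 had counts of 0 and CDH1 averaged 0.295 CPM (counts per 1000000), so the defining epithelial markers other than keratins were near or at 0. In PANC-1 with DMSO, CDH1 averaged 45.7 CPM and GRHL2 had counts of 0. Of 7 epithelial markers, 5 were called higher and 2 lower in BxPC-3 than in PANC-1, where 52.5% of all genes differed.

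RefSeq promoter windows (build GRCh38.p14, the 250 bases before each annotated start) were found for 8 of the 9 genes, and F11R is named only. They were searched on both strands for CAGGTG, the E-box bound by the repressors of the SNAI and ZEB families, which are known to act on claudin and occludin genes. At least 1 window of CLDN7, TJP1, TJP3 and OCLN held it, and the only windows of CLDN1, CLDN3, CLDN4 and CLDN12 did not. TJP1 had 4 windows and CLDN7, TJP3 and OCLN 2 each, and not every window of CLDN7, TJP1 and TJP3 held it. Of 35116 windows of the same length, 17.5% held it. That share is of windows, so it cannot be set against a number of genes searched through unequal numbers of windows. The CLDN7 sites, with 4 boxes in a single window, are shown first because CLDN7 was abundant in BxPC-3 and near 0 in MIA PaCa-2. Of all windows, 43 (0.122%) held at least 4. Capitals mark the E-box on either strand, and each 30-base site is written 5′ to 3′ on the strand of its gene.
CLDN7, chr17:7262635-7262664, minus strand: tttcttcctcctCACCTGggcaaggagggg
CLDN7, chr17:7262596-7262625, minus strand: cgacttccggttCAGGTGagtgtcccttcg
CLDN7, chr17:7262476-7262505, minus strand: atatactCAGGTGcgcccCACCTGtccgcc
OCLN, chr5:69492502-69492531, plus strand: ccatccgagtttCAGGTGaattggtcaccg
OCLN, chr5:69492645-69492674, plus strand: tctaggacgcagCAGGTGggactcgcggcg
TJP1, chr15:29969120-29969149, minus strand: gcggccggcgcgCAGGTGgcccggcctcgc
TJP3, chr19:3721718-3721747, plus strand: gaggaagaggggCAGGTGcagccgggagct

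The TJP1 site lies upstream of the gene as annotated in GENCODE release 29. The other sites fall at least partly in untranslated exons of longer transcripts, since they precede an internal start. The CLDN3 window lies wholly before the gene at chr7:73770271-73770520 on the minus strand and holds no E-box. It is shown whole because CLDN3 and CLDN7 both rose with 1E5 in PANC-1. Whether an E-box has a part in the level of any of these genes was not tested.
CLDN3: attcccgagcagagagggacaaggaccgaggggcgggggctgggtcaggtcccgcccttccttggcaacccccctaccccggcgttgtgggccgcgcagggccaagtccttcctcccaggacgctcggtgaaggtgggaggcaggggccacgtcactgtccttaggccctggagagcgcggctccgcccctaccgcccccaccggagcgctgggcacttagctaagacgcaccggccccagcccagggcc

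The DR4 type of LXR element, AGGTCA repeated after a gap of 4 bases, was in none of the windows of these genes and in 5 of the 35116 (0.0142%). A match or its absence describes these letters only. Among repressors that bind the E-box, ZEB1 averaged 52.5 CPM in MIA PaCa-2, 36.1 CPM in PANC-1 and 0.659 CPM in BxPC-3 with DMSO. SNAI2 was instead highest in BxPC-3, at 0.176 CPM in MIA PaCa-2, 0.0916 CPM in PANC-1 and 116 CPM in BxPC-3. SNAI1 averaged 2.45, 8.31 and 0.925 CPM in the same order of lines, and ZEB2 was at 0, 0.968 and 1.04 CPM.

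The mixture of tight junction transcripts differed between the lines before any ligand was given. In BxPC-3 with DMSO, CLDN1 was the most abundant of the 9 per kilobase of exonic sequence, at 115 ± 13.0 CPM per kb (SD, n = 3). It was followed by F11R at 53.4 ± 25.7, CLDN7 at 47.2 ± 2.75, CLDN4 at 25.1 ± 39.4 and TJP1 at 20.6 ± 0.807 CPM per kb. CLDN12, TJP3, OCLN and CLDN3 lay between 5.70 and 2.46 CPM per kb. In that order CLDN1, TJP1 and OCLN did not overlap the gene ranked after them, and all other neighbours did. In MIA PaCa-2 with DMSO the order began with CLDN4 at 15.9 ± 11.2, CLDN1 at 6.52 ± 2.23, CLDN12 at 5.31 ± 1.30 and TJP1 at 4.02 ± 0.961 CPM per kb. OCLN, F11R and TJP3 followed at 2.25 to 1.95 CPM per kb, and the only gap without overlap came after TJP3, before CLDN7 at 0.182 CPM per kb and CLDN3 at 0. In PANC-1 with DMSO, CLDN4 averaged 17.3 ± 27.3 CPM per kb, with libraries from 0.309 to 48.8, so its first place is loose. TJP1, CLDN7 and CLDN3 averaged 13.7, 12.5 and 11 CPM per kb, and CLDN1, OCLN, F11R and CLDN12 lay between 9.05 and 6.31 CPM per kb. Neighbours in this order overlapped, except OCLN with F11R and CLDN12 with TJP3. TJP3 was last at 0.767 ± 0.0370 CPM per kb, below all 3 libraries of CLDN12.

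**Figure D1:**
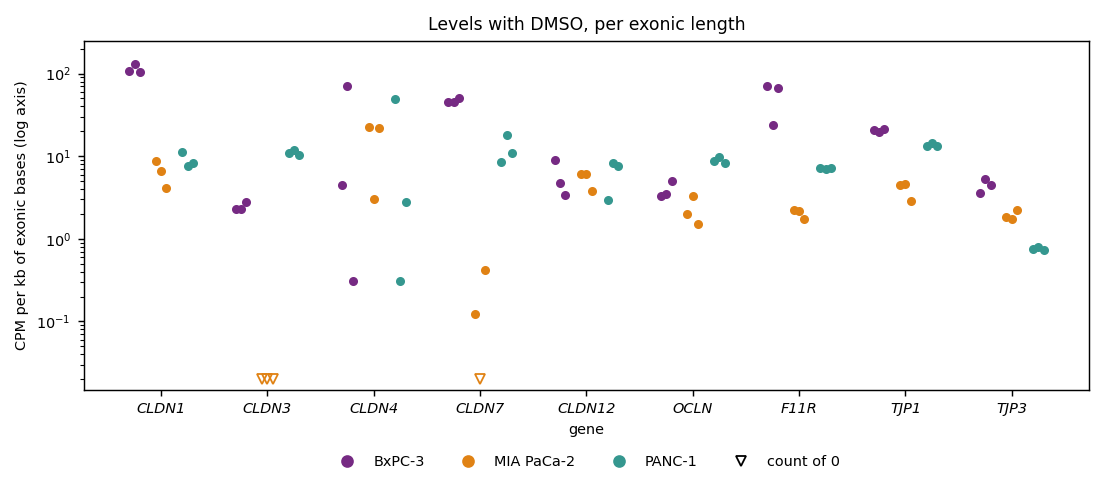
Level per kilobase of exonic sequence (CPM per kb, log axis) of the 9 tight junction genes in the DMSO libraries of each line, with 1 point per library. BxPC-3 was highest for CLDN1, CLDN7 and F11R, and CLDN3 and CLDN7 were at or near 0 in MIA PaCa-2.

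Of the 9 genes, 7 differed between BxPC-3 and PANC-1 with DMSO by edgeR's quasi-likelihood test, at an adjusted p under 0.05 over 22132 genes, of which 52.5% passed. CLDN1, CLDN7, TJP1, TJP3 and F11R were higher in BxPC-3 and CLDN3 and OCLN lower. CLDN1 averaged 421 ± 47.5 CPM in BxPC-3 and 33.1 ± 7.40 CPM in PANC-1 (SD, n = 3 each), 12.7-fold higher in the 36-library model (log2 3.67, SE 0.297, edgeR adjusted p 1.62e-11). TJP3 was 5.78-fold and F11R 7.51-fold higher in BxPC-3, CLDN7 3.78-fold and TJP1 1.51-fold. CLDN3, in contrast, was 4.46-fold lower in BxPC-3, with 2.93, 2.89 and 3.58 CPM there against 13.8, 15.1 and 13.1 CPM in PANC-1. OCLN was 2.27-fold lower in BxPC-3.

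Against MIA PaCa-2, 6 of the 9 genes were higher in BxPC-3 and none lower, where 57.4% of all genes differed and 32.7% were higher in BxPC-3. CLDN7, which BxPC-3 held at 113, 114 and 125 CPM, had 2, 0 and 4 counts in the MIA PaCa-2 DMSO libraries, a 393-fold difference (log2 8.62, SE 0.488, edgeR adjusted p 6.52e-15). At so few counts its size is loose, and it ran from log2 7.71 to 9.99 when single libraries were left out. CLDN3 had no count in any MIA PaCa-2 DMSO library. BxPC-3 was therefore at least 22.1-fold higher, taking a floor of 3 counts over the 3 libraries. F11R was 25.8-fold, CLDN1 17.4-fold and TJP1 5.09-fold higher in BxPC-3, and TJP3 2.29-fold (adjusted p 0.0358 in edgeR). The TJP3 call was lost when any of 4 of the 6 DMSO libraries was left out (edgeR adjusted p up to 0.0978).

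Between MIA PaCa-2 and PANC-1 6 of the 9 genes differed, where 51.2% of all genes did. CLDN3, CLDN7, TJP1, OCLN and F11R were lower in MIA PaCa-2 and TJP3 was higher. PANC-1 was at least 98.8-fold higher for CLDN3 by the same floor, and CLDN7 was 104-fold lower in MIA PaCa-2, with log2 differences of -8.08 to -5.80 when single libraries were left out. OCLN was 3.84-fold, F11R 3.44-fold and TJP1 3.38-fold lower in MIA PaCa-2. TJP3 was 2.52-fold higher in MIA PaCa-2 (edgeR adjusted p 0.0262), a call that was lost without any 1 of the 6 libraries (edgeR adjusted p 0.0559 to 0.0964). The median log2 difference over the 9 genes was 0.59 for BxPC-3 against PANC-1, 2.35 for BxPC-3 against MIA PaCa-2 and -1.76 for MIA PaCa-2 against PANC-1. Over all genes tested the medians were 0.00, 0.13 and -0.12. CLDN4 and CLDN12 passed in none of the line comparisons. Without MIA PaCa-2 DMSO replicate 2, OCLN was also higher in BxPC-3 than in MIA PaCa-2 (log2 1.22, edgeR adjusted p 0.0273). Without DMSO replicate 1, CLDN1 was lower in MIA PaCa-2 than in PANC-1 (log2 -0.79, edgeR adjusted p 0.0418).

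**Figure D2:**
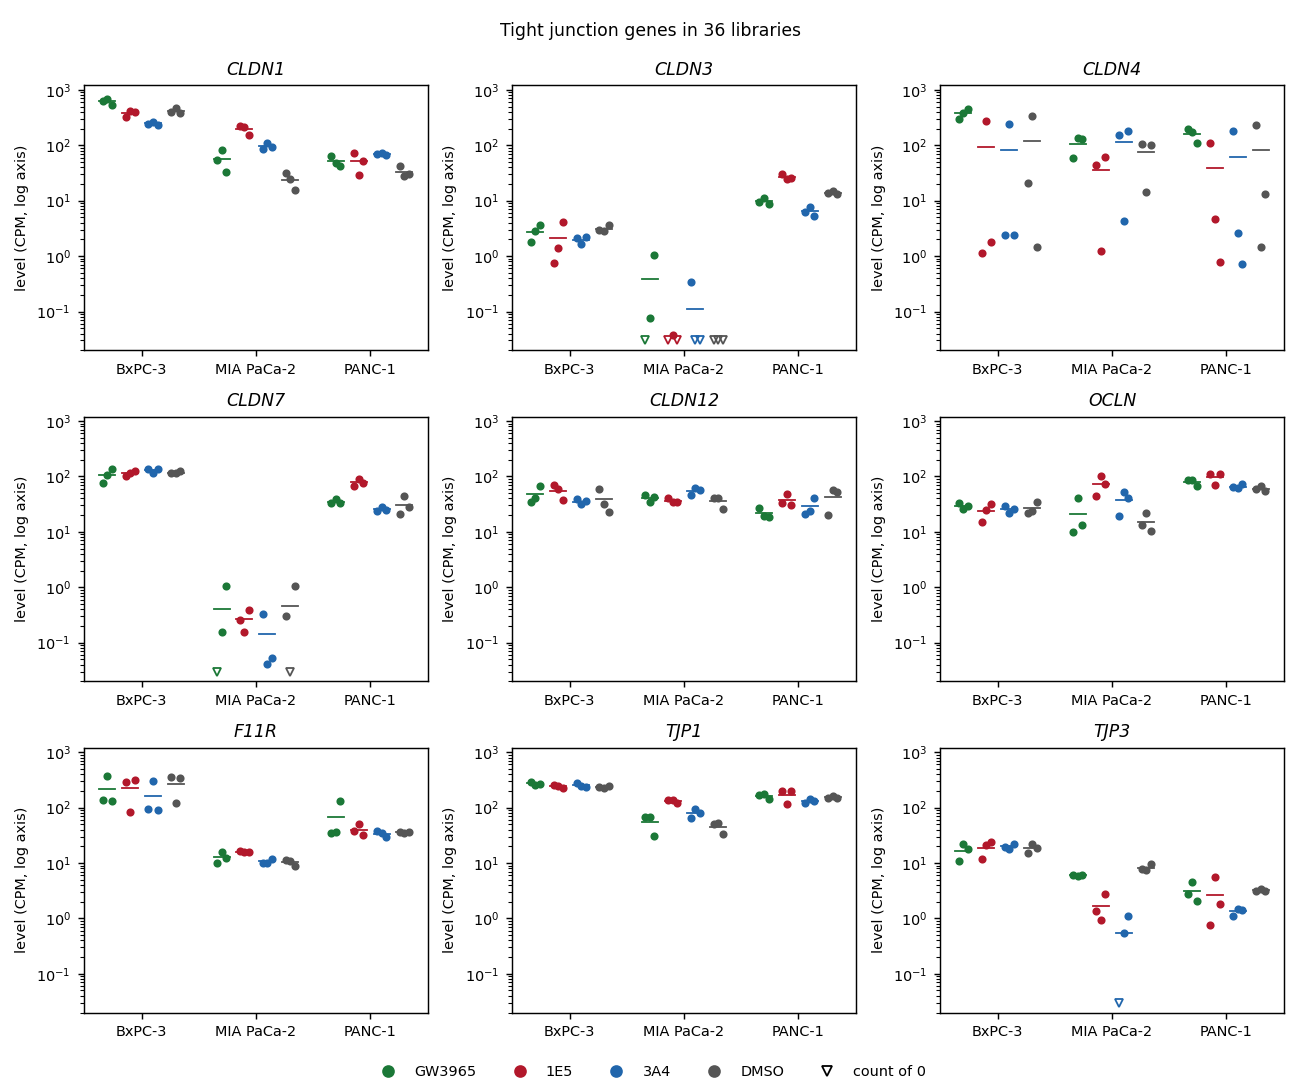
Level of each of the 9 genes (CPM, log axis) in all 36 libraries, 1 point per library, by line and by treatment. CLDN1 lay above DMSO with 1E5 and 3A4 in MIA PaCa-2, and CLDN4 differed by up to 258-fold between libraries of 1 group.

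CLDN1 was the claudin with the largest response to the inverse agonists, and the response was strongest in MIA PaCa-2. There it had 224, 215 and 150 CPM with 1E5, 84.7, 112 and 94.6 CPM with 3A4, 55.3, 82.5 and 33.0 CPM with GW3965 and 31.7, 24.6 and 15.3 CPM with DMSO. All 1E5 and 3A4 libraries lay above all DMSO libraries, and every 1E5 library lay above every 3A4 library. The rise was 7.65-fold with 1E5 (log2 2.94, SE 0.304, edgeR adjusted p 1.16e-05) and 3.78-fold with 3A4 (log2 1.92, SE 0.295, edgeR adjusted p 0.00275). Both calls held without any 1 library. With GW3965 all 3 libraries also lay above DMSO, at a log2 difference of 1.24 (SE 0.296), but the edgeR adjusted p was 0.127. DESeq2 gave 0.00392 for the same comparison, and edgeR 0.0333 when GW3965 replicate 3, the shallowest library, was left out.

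In PANC-1, CLDN1 had 73.5, 29.4 and 52.1 CPM with 1E5, 70.9, 72.4 and 66.6 CPM with 3A4, 63.7, 48.0 and 42.0 CPM with GW3965 and 41.5, 27.5 and 30.4 CPM with DMSO. The 3A4 and GW3965 libraries all lay above the DMSO libraries, and 1E5 replicate 2 was within their range. The rise with 3A4 was 2.14-fold (log2 1.10, SE 0.277, edgeR adjusted p 0.0361). That call was lost when any of 5 of the 6 libraries was left out (edgeR adjusted p up to 0.139) and kept without DMSO replicate 1. With 1E5 the log2 difference was 0.64 (edgeR adjusted p 0.0867). Without 1E5 replicate 2 it was 0.91, with an edgeR adjusted p of 0.00672.

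In BxPC-3 no ligand gave a call on CLDN1 at an adjusted p under 0.05 in edgeR. Of all genes there, 0% passed with 1E5, 0.0333% with 3A4 and 1.32% with GW3965. CLDN1 had 317, 411 and 398 CPM with 1E5, 243, 263 and 236 CPM with 3A4, 630, 695 and 527 CPM with GW3965 and 399, 475 and 388 CPM with DMSO. The 3A4 libraries were all below and the GW3965 libraries all above the DMSO libraries. The log2 difference was -0.76 with 3A4 (SE 0.131, edgeR adjusted p 0.0922) and 0.57 with GW3965 (SE 0.131, edgeR adjusted p 0.0628). DESeq2 called both. The response of CLDN1 differed among the 3 lines for 1E5 (edgeR interaction test, adjusted p 9.65e-07) and for 3A4 (edgeR adjusted p 2.23e-04).

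CLDN3 and CLDN7 rose with 1E5 in PANC-1, and 3A4 moved CLDN3 the other way. CLDN3 had 29.8, 24.7 and 25.3 CPM with 1E5, 6.25, 7.71 and 5.24 CPM with 3A4, 9.62, 11.4 and 8.77 CPM with GW3965 and 13.8, 15.1 and 13.1 CPM with DMSO. The 4 groups did not overlap, with 1E5 on top, then DMSO, GW3965 and 3A4. CLDN3 rose 1.90-fold with 1E5 (log2 0.93, SE 0.161, edgeR adjusted p 9.45e-04) and fell 2.16-fold with 3A4 (log2 -1.11, SE 0.165, edgeR adjusted p 0.00346). The GW3965 difference, log2 -0.51, had an edgeR adjusted p of 0.741. Both CLDN3 calls held without any 1 library but were lost when the 3 lines were fitted together (edgeR adjusted p 0.140 for 1E5 and 0.165 for 3A4).

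CLDN7 in PANC-1 had 65.9, 91.0 and 76.5 CPM with 1E5, 23.6, 28.2 and 24.8 CPM with 3A4, 32.5, 39.7 and 33.3 CPM with GW3965 and 21.3, 44.3 and 27.5 CPM with DMSO. The 1E5 libraries lay above all others, and the 3A4 and GW3965 libraries overlapped DMSO. CLDN7 rose 2.52-fold with 1E5 (log2 1.33, SE 0.231, edgeR adjusted p 9.28e-04). In BxPC-3 it stayed within 75.6 to 137 CPM over the 12 libraries, with log2 differences of -0.03 for 1E5, 0.15 for 3A4 and -0.13 for GW3965. The response of CLDN7 to 1E5 differed among the lines (edgeR adjusted p 0.0145), and the CLDN3 interaction had an edgeR adjusted p of 0.177. Single libraries changed both calls: CLDN7 had 0.0555 without PANC-1 DMSO replicate 1, and CLDN3 0.0132 without BxPC-3 1E5 replicate 3 (edgeR adjusted p). CLDN7 shares 269 exonic bases with AC003688.1 on the same strand, whose median count was 13.0, so a few reads could be assigned to either.

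In MIA PaCa-2, CLDN3 and CLDN7 were too low to be tested. CLDN3 had a summed count of 8 over the 12 libraries and was at 0 in 8 of them. CLDN7 had 7, 4 and 10 counts in the 1E5 libraries, 3, 1 and 1 in the 3A4 libraries, 0, 2 and 3 in the GW3965 libraries and 2, 0 and 4 in the DMSO libraries. The 1E5 libraries were deeper than every DMSO library of that line, and their CLDN7 levels overlapped those with DMSO. In BxPC-3, CLDN3 had 0.756, 1.42 and 4.18 CPM with 1E5, 2.13, 1.65 and 2.18 CPM with 3A4, 1.81, 2.79 and 3.60 CPM with GW3965 and 2.93, 2.89 and 3.58 CPM with DMSO. The 3A4 libraries lay below DMSO, but no BxPC-3 comparison of CLDN3 passed (lowest edgeR adjusted p 0.614).

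CLDN12 stayed between 18.6 and 69.7 CPM in all 36 libraries and did not pass against DMSO with any ligand in edgeR. In MIA PaCa-2 it had 40.4, 34.8 and 34.9 CPM with 1E5, 46.2, 62.2 and 57.3 CPM with 3A4, 46.4, 35.1 and 43.2 CPM with GW3965 and 41.1, 40.6 and 25.7 CPM with DMSO. The 3A4 libraries lay above both the DMSO and the 1E5 libraries. The log2 difference of 3A4 from DMSO was 0.53 (SE 0.189, edgeR adjusted p 0.0817), and DESeq2 called it (adjusted p 0.0349). In PANC-1 the log2 difference of CLDN12 with GW3965 was -0.99 (SE 0.380, edgeR adjusted p 1.00), and the DMSO libraries themselves ran from 19.8 to 55.8 CPM. CLDN12 shares 347 exonic bases with GTPBP10 and 201 with CDK14 on the same strand.

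CLDN4 varied so widely between libraries of the same group that no ligand comparison could be read from it. In BxPC-3 it had 1.13, 273 and 1.79 CPM with 1E5, 2.43, 241 and 2.45 CPM with 3A4, 300, 389 and 460 CPM with GW3965 and 20.9, 331 and 1.45 CPM with DMSO. Replicate 2 was the high library in each of the 1E5, 3A4 and DMSO groups, and the GW3965 libraries were high throughout. In PANC-1 it had 110, 4.66 and 0.790 CPM with 1E5, 184, 2.56 and 0.714 CPM with 3A4, 199, 173 and 108 CPM with GW3965 and 229, 1.45 and 13.0 CPM with DMSO. There replicate 1 was the high library of the same 3 groups. In MIA PaCa-2 it had 44.7, 1.26 and 61.3 CPM with 1E5, 153, 4.25 and 181 CPM with 3A4, 58.1, 134 and 129 CPM with GW3965 and 107, 14.1 and 103 CPM with DMSO. Here replicate 2 was low in the 1E5, 3A4 and DMSO groups.

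All 9 GW3965 libraries thus held CLDN4 between 58.1 and 460 CPM. Of the other 27 libraries, 12 lay between 44.7 and 331 CPM and 15 between 0.714 and 20.9 CPM, a split at 25 CPM chosen after the values were seen. The log2 difference of GW3965 from DMSO was 1.72 in BxPC-3 (SE 2.05), 0.97 in PANC-1 (SE 1.90) and 0.50 in MIA PaCa-2 (SE 1.16), with edgeR adjusted p-values of 0.817, 1.00 and 0.968. The ratio of the highest to the lowest library was 258 in the PANC-1 3A4 group, where 4 of the 10104 genes averaging 10 CPM or more had a larger one. It was 240 in the BxPC-3 1E5 group, with 4 of 10305 genes above, and 229 in the BxPC-3 DMSO group, with 9 of 10359 above. With GW3965 it was 1.53 in BxPC-3, 1.84 in PANC-1 and 2.31 in MIA PaCa-2. The median gene had a ratio of 1.17 to 1.37, by group, and 0.129% to 0.423% of genes reached 10.

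The neighbours of CLDN4 on chromosome 7 varied far less. In the PANC-1 1E5 libraries, CLDN3 had 29.8, 24.7 and 25.3 CPM and METTL27 4.18, 3.16 and 5.60 CPM where CLDN4 had 110, 4.66 and 0.790 CPM. In BxPC-3, METTL27 was highest in the replicate 2 libraries in which CLDN4 was high, on a much smaller scale, with 2.98, 5.81 and 4.18 CPM with 1E5, 3.37, 5.47 and 3.93 CPM with 3A4 and 3.64, 4.84 and 2.81 CPM with DMSO. A smaller split of the kind seen for CLDN4 was found for F11R in BxPC-3, which had 284, 83.3 and 316 CPM with 1E5, 94.0, 297 and 89.4 CPM with 3A4, 135, 375 and 134 CPM with GW3965 and 355, 121 and 336 CPM with DMSO. Replicate 2 was the low library in the 1E5 and DMSO groups and the high library in the 3A4 and GW3965 groups. Of the genes near F11R, TSTD1 had 20.8, 24.7 and 19.7 CPM and USF1 27.2, 25.8 and 26.7 CPM in the BxPC-3 1E5 libraries. F11R shares 1853 exonic bases with AL591806.3, whose median count was 1.5. What set the CLDN4 and F11R levels of a library was not tested.

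**Figure D3:**
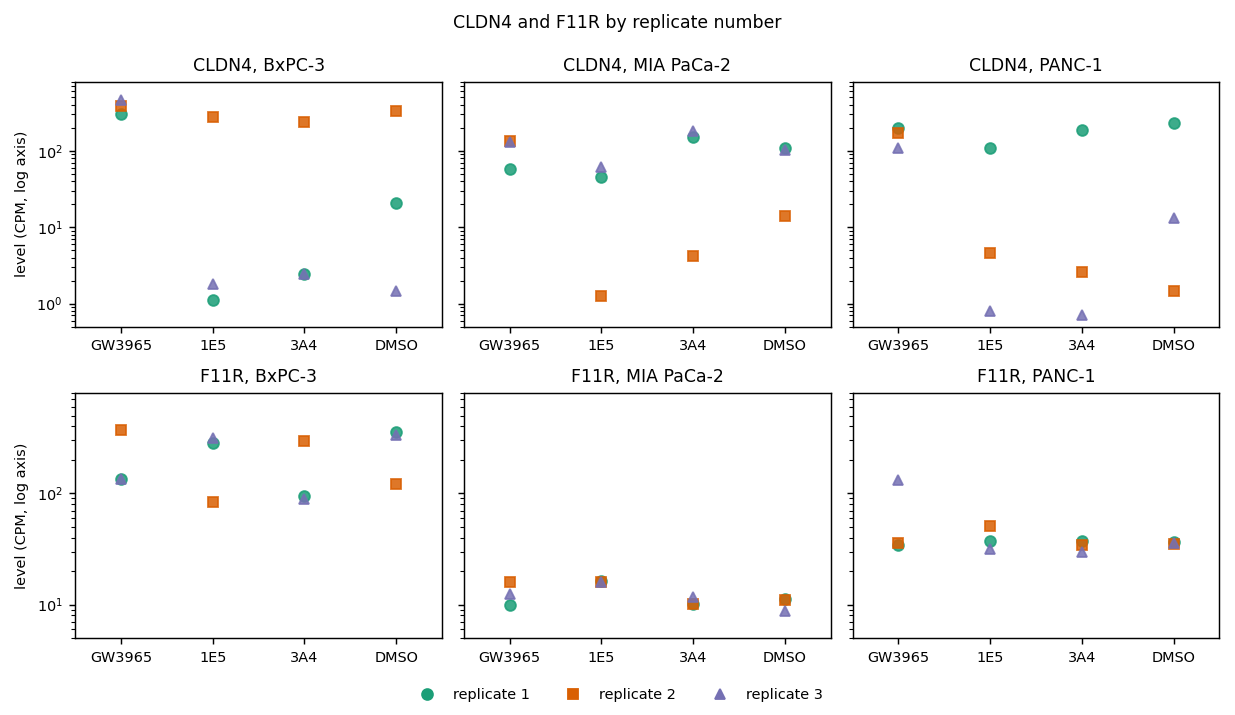
Level of CLDN4 (upper row) and F11R (lower row) in each library (CPM, log axis), by line and treatment, with the marker giving the replicate number. The 3 GW3965 libraries of each line lie close together for CLDN4, whereas the other groups split by replicate number, and F11R splits in all 4 BxPC-3 groups.

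OCLN rose with 1E5 in PANC-1 and in MIA PaCa-2. In MIA PaCa-2 it had 43.5, 103 and 73.0 CPM with 1E5, 19.6, 52.0 and 40.9 CPM with 3A4, 9.75, 40.1 and 13.1 CPM with GW3965 and 13.4, 22.0 and 10.3 CPM with DMSO. All 1E5 libraries were above all DMSO libraries, and the 3A4 and GW3965 groups overlapped DMSO. The rise with 1E5 was 4.42-fold (log2 2.14, SE 0.500, edgeR adjusted p 0.00369), and the log2 difference with 3A4 was 1.18 (SE 0.492, edgeR adjusted p 0.125, and 0.0246 in 1 fit of all lines). In PANC-1 it had 112, 68.6 and 109 CPM with 1E5, 63.8, 61.6 and 71.5 CPM with 3A4, 86.1, 86.6 and 67.8 CPM with GW3965 and 58.7, 66.6 and 55.4 CPM with DMSO. The 1E5 and GW3965 libraries lay above DMSO, and 1E5 replicate 2 was well under both other 1E5 libraries. The rise with 1E5 was 1.60-fold (log2 0.68, SE 0.172, edgeR adjusted p 0.00859), and log2 0.87 without replicate 2. In 1 fit of all lines that call was lost (edgeR adjusted p 0.170).

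In BxPC-3, OCLN ran from 14.9 to 34.1 CPM with no call, and its response to 1E5 differed among the lines (edgeR adjusted p 0.00273). A pseudogene of OCLN on chromosome 5, OCLNP1, had 0 to 295 counts per library, so some reads may be shared between the 2 loci. F11R was low in MIA PaCa-2, with 16.2, 15.8 and 16.0 CPM with 1E5, 10.1, 10.1 and 11.7 CPM with 3A4, 9.96, 16.1 and 12.4 CPM with GW3965 and 11.3, 11 and 8.73 CPM with DMSO. The 1E5 libraries lay close together and above DMSO, a 1.45-fold rise (log2 0.53, SE 0.199, edgeR adjusted p 0.0414). That call was lost without any 1 of the 6 libraries (edgeR adjusted p 0.0581 to 0.113). In PANC-1, F11R stayed between 29.6 and 50.6 CPM outside GW3965 replicate 3, which had 131 CPM.

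TJP1 rose and TJP3 fell in MIA PaCa-2. TJP1 had 136, 135 and 123 CPM with 1E5, 63.8, 93.1 and 80.3 CPM with 3A4, 66.4, 66.5 and 31.2 CPM with GW3965 and 50.4, 52.6 and 32.8 CPM with DMSO. The 1E5 libraries lay above all others and the 3A4 libraries above DMSO. The rise with 1E5 was 2.72-fold (log2 1.44, SE 0.242, edgeR adjusted p 3.96e-04), and the log2 difference with 3A4 was 0.71 (SE 0.240, edgeR adjusted p 0.0676). The 3A4 difference passed in DESeq2 (adjusted p 0.02), in 1 fit of all lines (edgeR adjusted p 0.00821) and without the filter on low counts (edgeR adjusted p 0.0495). In BxPC-3 TJP1 was the steadiest of the 9, with 222 to 293 CPM over the 12 libraries. In PANC-1 it had 202, 114 and 197 CPM with 1E5, 121, 145 and 131 CPM with 3A4, 168, 176 and 144 CPM with GW3965 and 150, 162 and 151 CPM with DMSO. The 1E5 group overlapped DMSO through replicate 2, and the log2 difference was 0.15 with that library and 0.37 without it (edgeR adjusted p 0.529 with and 0.0155 without). The TJP1 response to 1E5 differed among the lines (edgeR adjusted p 2.11e-04).

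TJP3 in MIA PaCa-2 had 1.36, 0.955 and 2.74 CPM with 1E5, 0, 0.542 and 1.11 CPM with 3A4, 6.15, 5.78 and 6.02 CPM with GW3965 and 7.76, 7.40 and 9.53 CPM with DMSO. Every ligand library lay below every DMSO library, and the 3A4 counts were 0, 13 and 21. TJP3 fell 5.17-fold with 1E5 (log2 -2.37, SE 0.593, edgeR adjusted p 0.00561) and 14.4-fold with 3A4 (log2 -3.84, SE 0.656, edgeR adjusted p 0.00473). At these low counts the 3A4 difference ran from log2 -4.65 to -3.39 when single libraries were left out. The GW3965 difference was log2 -0.48 (SE 0.583, edgeR adjusted p 0.899). In PANC-1 it had 0.766, 5.49 and 1.81 CPM with 1E5, 1.11, 1.50 and 1.43 CPM with 3A4, 2.74, 4.57 and 2.08 CPM with GW3965 and 3.16, 3.41 and 3.13 CPM with DMSO. The 3A4 libraries were all below DMSO, but the log2 difference of -1.24 had an edgeR adjusted p of 0.207. The same difference passed when the 1E5 libraries were left out of the fit (edgeR adjusted p 0.0226) or only the 3A4 and DMSO libraries were fitted (edgeR adjusted p 0.0160). Without 1E5 replicate 2, TJP3 also fell with 1E5 in PANC-1 (log2 -1.34, edgeR adjusted p 0.0233). In BxPC-3, TJP3 ran from 11 to 23.7 CPM with no call. The TJP3 response differed among the lines for 1E5 (edgeR adjusted p 0.0174) and for 3A4 (edgeR adjusted p 0.00642). The 1E5 call was lost without MIA PaCa-2 1E5 replicate 1, 1E5 replicate 2 or DMSO replicate 3 (edgeR adjusted p 0.0562, 0.0710 and 0.0526).

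Of the 9 genes, 5 of the 7 tested in MIA PaCa-2 changed with 1E5, of which 4 rose (CLDN1, OCLN, TJP1 and F11R) and TJP3 fell, where 47.0% of all genes changed. With 3A4, CLDN1 rose and TJP3 fell, 2 of 7 where 13.8% of all genes changed. In PANC-1, 3 of 9 rose with 1E5 (CLDN3, CLDN7 and OCLN), where 39.1% of all genes changed and 19.7% rose. Without 1E5 replicate 2, CLDN1 and TJP1 also rose and TJP3 fell, 6 of 9. Of all genes, 7248 changed with 1E5 in PANC-1, and 5658 to 7789 when single libraries were left out. With 3A4 CLDN1 rose and CLDN3 fell, 2 of 9 where 7.37% of all genes changed. With all libraries, the 1E5 count lay above the share of all genes in MIA PaCa-2 and below it in PANC-1. With 7 or 9 genes tested, these counts are not read as a result about the members.

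With GW3965 edgeR called none of the 9 genes in BxPC-3 (1.32% of all genes changed) or in PANC-1 (0.0485%), and none of 7 in MIA PaCa-2 (0.523%). At an unadjusted p under 0.05 edgeR gave CLDN1 and TJP1 in BxPC-3, CLDN1 in MIA PaCa-2, and CLDN1, CLDN3, CLDN12 and OCLN in PANC-1. Of all genes, 12.1%, 8.74% and 4.48% had an unadjusted p under 0.05 in the same order of lines. DESeq2 called CLDN1 in BxPC-3 and in MIA PaCa-2 and none in PANC-1. In BxPC-3 edgeR called 0 of 9 with 1E5, when it also called 0% of all genes, and 0 of 9 with 3A4, when it called 0.0333%. At an unadjusted p under 0.05 these counts were 0 with 1E5 and 1 with 3A4 (CLDN1), and DESeq2 called 0 with 1E5 and 1 with 3A4. Of all genes, 3.17% with 1E5 and 12.7% with 3A4 had an unadjusted p under 0.05 in edgeR.

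The median log2 change of the genes tested was 0.53 with 1E5, 0.53 with 3A4 and 0.30 with GW3965 in MIA PaCa-2, where all genes had medians of 0.05, 0.03 and -0.00. In PANC-1 it was 0.16, -0.26 and 0.17, against 0.02, 0.01 and -0.00 over all genes. In BxPC-3 it was -0.16, -0.12 and 0.15, against -0.00, 0.00 and -0.00. Responses to 1E5 differed among the lines for 5 of the 9 genes (38.5% of all genes), responses to 3A4 for 2 (5.89%) and responses to GW3965 for none (0.104%). For GW3965 the edgeR count at an unadjusted p under 0.05 was 1 (CLDN12), where 6.18% of all genes had one, and the DESeq2 count was 0.

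**Figure D4:**
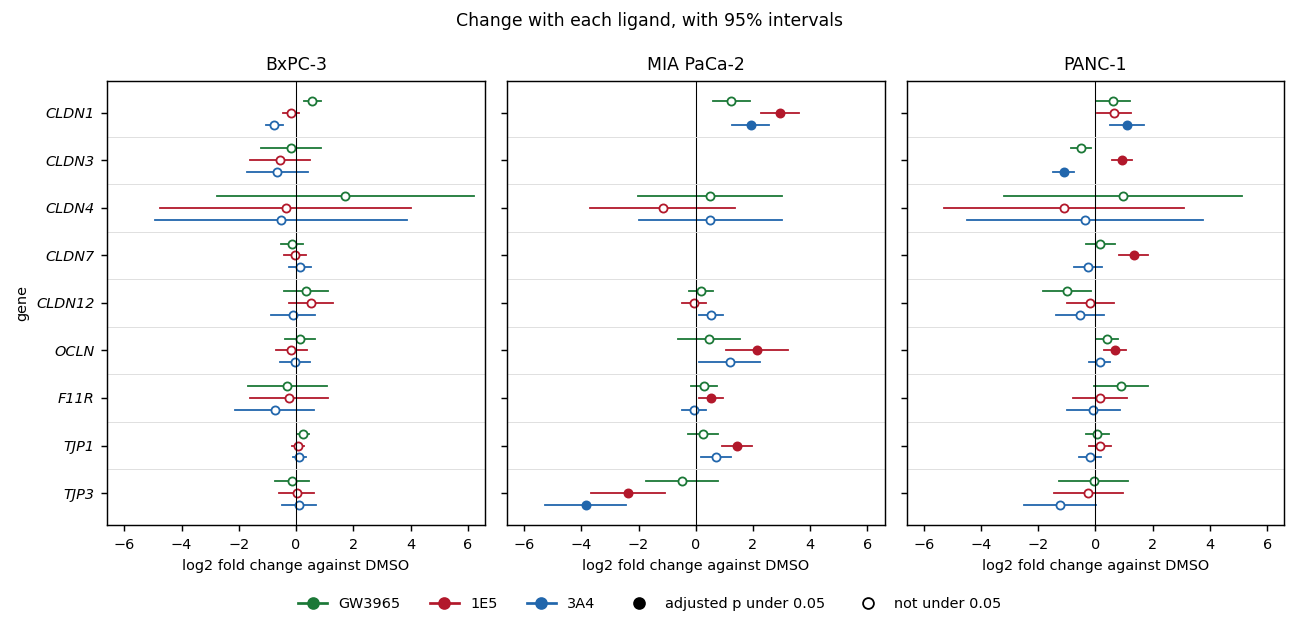
Log2 fold change of each of the 9 genes against DMSO with its 95% interval, by ligand and line, from edgeR, with called changes filled. CLDN1 at 2.94 and OCLN at 2.14 with 1E5 in MIA PaCa-2 lie highest and TJP3 at -3.84 with 3A4 lowest among the called changes, and the intervals of CLDN4 cross 0 throughout.

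The 2 inverse agonists, known here by code name only, were compared at the same dose and time in the 3 lines. In PANC-1 they differed for 3 of the 9 genes, where 37.3% of all genes differed. CLDN3 was 4.11-fold lower with 3A4 than with 1E5 (log2 -2.04, SE 0.168, edgeR adjusted p 8.46e-06) and CLDN7 3.02-fold lower (log2 -1.60, SE 0.233, edgeR adjusted p 3.25e-04). These libraries did not overlap for either gene. OCLN was 1.45-fold lower with 3A4 (edgeR adjusted p 0.0282), with overlapping libraries, and that call was lost without any of 4 of the 6 libraries (edgeR adjusted p up to 0.0950). Without 1E5 replicate 2, TJP1 was also lower with 3A4 (log2 -0.57, edgeR adjusted p 0.00155). Without 1E5 replicate 1, CLDN1 was higher with 3A4 (log2 0.79, edgeR adjusted p 0.0330) and TJP3 lower (log2 -1.44, edgeR adjusted p 0.0310).

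In MIA PaCa-2, 4 of 7 genes differed between 3A4 and 1E5, where 32.4% of all genes did. CLDN1 was 2.03-fold lower with 3A4 (log2 -1.02, SE 0.278, edgeR adjusted p 0.0137), TJP1 1.66-fold lower (0.0295) and F11R 1.51-fold lower (0.0323), and CLDN12 was 1.50-fold higher (0.0287). Each of the 4 calls was lost when some single libraries were left out. This happened for 2 libraries with CLDN1 (adjusted p up to 0.0668 in edgeR), 4 with TJP1 (up to 0.139), 4 with CLDN12 (up to 0.0971) and all 6 with F11R (up to 0.101). TJP3 had a log2 difference of -1.47 between 3A4 and 1E5 (95% interval -2.82 to -0.12, edgeR adjusted p 0.0899), and passed in DESeq2 (adjusted p 0.0237) and without 3A4 replicate 3 (edgeR adjusted p 0.0338). For OCLN it was -0.96 (95% interval -1.98 to 0.05, edgeR adjusted p 0.136), so its interval holds both equal levels and much lower ones with 3A4.

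In BxPC-3 edgeR found none of the 9 to differ between 3A4 and 1E5, where 0.144% of all genes did. At an unadjusted p under 0.05, which 13.8% of all genes had, the edgeR count was 1. The DESeq2 count was 1, and the gene was CLDN1 in both. CLDN1 was lower with 3A4 in every library, at a log2 difference of -0.59 (95% interval -0.88 to -0.30, edgeR adjusted p 0.130). Over the genes tested, the median log2 difference of 3A4 from 1E5 was -0.73 in MIA PaCa-2, -0.35 in PANC-1 and -0.07 in BxPC-3, against -0.03, -0.00 and 0.00 over all genes.

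The wider tight junction was followed through 55 further genes, namely 19 other claudins, 13 other membrane proteins, and 23 plaque and polarity proteins. In MIA PaCa-2 with 1E5, 17 of the 33 tested changed, where 47.0% of all genes did. Of the 17, 11 rose and 6 fell, and the median log2 change over the 33 was 0.43. Among the 21 plaque and polarity proteins tested, 13 changed. MARVELD2 (tricellulin, found where 3 cells meet) rose 3.99-fold, to 22.9 ± 4.19 CPM with 1E5 against 5.33 ± 2.32 CPM with DMSO (SD, n = 3 each). ARHGEF2, a RhoA exchange factor held at tight junctions, rose 3.93-fold and CXADR, the coxsackievirus and adenovirus receptor, 2.49-fold. CLDN11 fell 3.07-fold, PARD6A 2.52-fold and the scaffold MAGI1 2.29-fold. With 3A4 4 of the 33 passed there, where 13.8% of all genes did. ARHGEF2 (2.03-fold), PALS1 (1.77-fold) and PARD3 (1.41-fold), both of them polarity scaffolds, rose, and PRKCZ, an atypical protein kinase C, fell 1.72-fold. With GW3965, where 0.523% of all genes passed, only ARHGEF2 did, 2.44-fold higher (edgeR adjusted p 0.0379). It had 193 ± 68.1 CPM with GW3965 and 78.0 ± 7.12 CPM with DMSO. No gene of the 33 passed with GW3965 without any of 5 of the 6 libraries. The 3A4 count was 2 without 3A4 replicate 2 or 3 or DMSO replicate 2 or 3, and 8 in 1 fit of all lines.

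In PANC-1 with 1E5, 21 of the 41 tested changed, where 39.1% of all genes did. Of the 21, 10 rose and 11 fell, and the median log2 change over the 41 was -0.18. Without 1E5 replicate 2 the counts were 10 and 12. The plaque proteins cingulin (CGN) and paracingulin (CGNL1) fell 4.56-fold and 10.9-fold. CGN had 2.46 ± 0.601 CPM with 1E5 and 11.3 ± 2.72 CPM with DMSO. CLDN10, a claudin of ion pores, fell 3.46-fold. CLMP (4.55-fold), ARHGEF2 (2.34-fold) and PARD6A (2.16-fold) rose, so PARD6A rose in PANC-1 and fell in MIA PaCa-2. With 3A4 3 of the 41 passed, where 7.37% of all genes did, among them ESAM, which rose 5.08-fold, and MAGI2, which fell 1.84-fold. The count was 1 without any of 5 of the 6 libraries and without the filter on low counts, 8 without the 1E5 libraries and 9 by DESeq2. With GW3965 edgeR called none of the 41 in PANC-1, where it called 0.0485% of all genes. At an unadjusted p under 0.05 the edgeR count was 2, where 4.48% of all genes had one, and DESeq2 called 0.

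In BxPC-3, 1 of 40 passed with GW3965, where 1.32% of all genes did. It was CLDN8, named after its values were seen, which had 0.317, 0.449 and 0.265 CPM with GW3965 and 1.20, 1.56 and 1.79 CPM with DMSO (log2 -2.10, SE 0.337, edgeR adjusted p 0.0128). CLDN8 was also the only one of the 40 to differ between 3A4 and 1E5 there, where 0.144% of all genes did. It had 0.384, 0.477 and 0.382 CPM with 3A4 and 1.72, 1.87 and 2.70 CPM with 1E5 (log2 -2.31, SE 0.328, edgeR adjusted p 0.0274). The libraries did not overlap in either comparison, at counts of 5 to 62. The GW3965 call on CLDN8 was lost without GW3965 replicate 1 or 3, and the 3A4 call without any of 5 of the 6 libraries. Both were lost in 1 fit of all lines and with only the compared groups in the fit. With 1E5 against DMSO edgeR called 0 of 40 (0% of all genes), with 1 at an unadjusted p under 0.05 and 0 by DESeq2. With 3A4 against DMSO edgeR called 0 (0.0333% of all genes), with 6 at an unadjusted p under 0.05 and 1 by DESeq2. Of all genes, 3.17% with 1E5 and 12.7% with 3A4 had an unadjusted p under 0.05 in edgeR.

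Between 3A4 and 1E5, 12 of the 33 genes differed in MIA PaCa-2, where 32.4% of all genes did. Of the 12, 5 were higher and 7 lower with 3A4, and 7 in all differed without 1E5 replicate 3. CLDN11 was 3.36-fold, AMOTL2 2.46-fold and MAGI1 1.93-fold higher with 3A4, and MARVELD2 2.70-fold, PATJ 2.30-fold and CXADR 2.28-fold lower. In PANC-1, 19 of 41 differed, 11 higher and 8 lower with 3A4, where 37.3% of all genes differed. CGN was 3.35-fold and AMOTL1 3.15-fold higher with 3A4. PARD6A was 2.85-fold, ARHGEF2 2.37-fold and CLDN23 2.20-fold lower. Responses to 1E5 differed among the lines for 23 of 48 genes by edgeR (38.5% of all genes) and responses to 3A4 for 4 (5.89%). Responses to GW3965 differed for none by edgeR (0.104%), with 4 at an unadjusted p under 0.05 (6.18% of all genes) and 2 by DESeq2. The 3A4 count was 1 to 6 when single libraries were left out and 9 by DESeq2.

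With DMSO, 35 of 48 of these genes differed between BxPC-3 and PANC-1, 21 higher and 14 lower in BxPC-3, where 52.5% of all genes differed. Against MIA PaCa-2, 27 were higher and 10 lower in BxPC-3 (57.4% of all genes differed). In MIA PaCa-2, 12 were higher and 20 lower than in PANC-1 (51.2% of all genes differed). CRB3, an apical polarity protein, averaged 11.2 ± 1.47 CPM in BxPC-3 and 0.179 ± 0.155 CPM in PANC-1. BVES and MPDZ were instead lower in BxPC-3, at 0 and 0.0296 CPM against 28.5 and 34.4 CPM in PANC-1. MARVELD3 averaged 26.6 ± 2.06 CPM in BxPC-3, with counts of 0 in MIA PaCa-2. CLDN11 averaged 84.7 ± 20.7 CPM in MIA PaCa-2, against 0.281 ± 0.206 CPM in BxPC-3 and 2.26 ± 0.462 CPM in PANC-1. AMOT, BVES and CLDN10 had counts of 0 in MIA PaCa-2 with DMSO and averaged 13.1, 28.5 and 10.4 CPM in PANC-1.

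**Figure D5:**
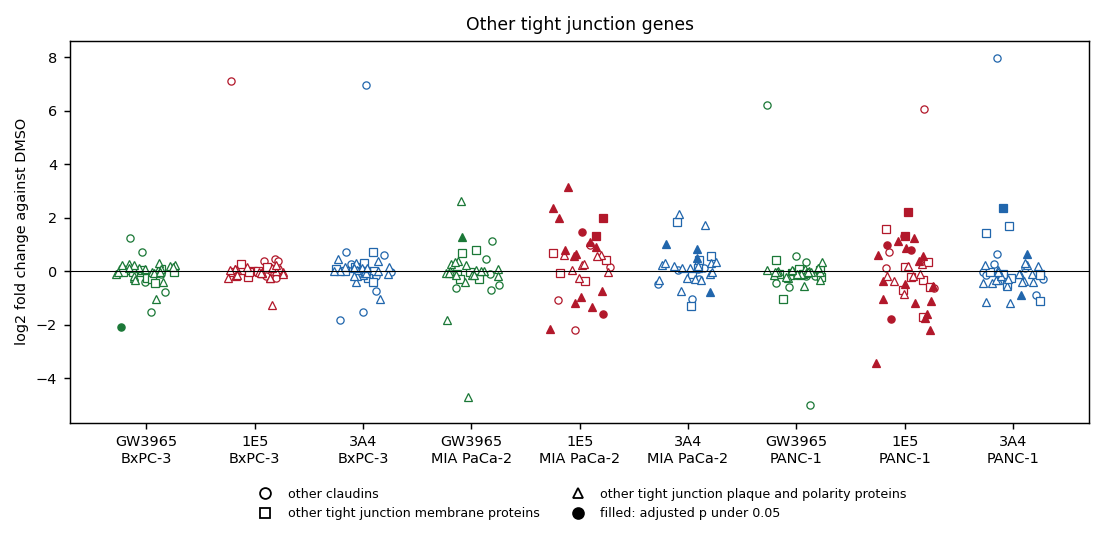
Log2 fold change against DMSO of the other tight junction genes tested, by ligand and line, with 1 symbol per gene, its shape giving the list and filled where the edgeR adjusted p was under 0.05. Filled symbols are frequent on both sides of 0 with 1E5 in MIA PaCa-2 (11 higher, 6 lower) and PANC-1 (10 higher, 11 lower), and there are none with 1E5 in BxPC-3. Of all genes, 47.0%, 39.1% and 0% changed with 1E5 in the same order of lines.

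Markers of cell state moved in the same libraries. With 1E5, the summed level of the 7 epithelial markers was 544 to 604 CPM in MIA PaCa-2, against 1245 to 1595 CPM with DMSO, and 746 to 895 CPM in PANC-1, against 3158 to 4876 CPM with DMSO. The keratins KRT8, KRT18 and KRT19 fell in both lines, 3 of 3 tested markers in MIA PaCa-2 and 3 of 6 in PANC-1. Of all genes, 47.0% and 39.1% changed with 1E5 in these lines. In BxPC-3 the sum was 4084 to 4715 CPM with 1E5 and 4578 to 5222 CPM with DMSO. ZEB1 had 139, 70.7 and 148 CPM in MIA PaCa-2 with 1E5 and 56.9, 56.3 and 44.2 CPM with DMSO. It rose there by log2 1.09 (edgeR adjusted p 0.00276) and was the only 1 of 4 mesenchymal markers tested to pass. The 8 mesenchymal markers together summed to 6354 to 8480 CPM with 1E5 and 7660 to 9592 CPM with DMSO in MIA PaCa-2. In PANC-1, ZEB1 averaged 38.0 CPM with 1E5 and 36.1 CPM with DMSO, and of 7 mesenchymal markers tested none rose and 2 fell with 1E5, CDH2 by log2 -0.75 and FN1 by log2 -1.23.

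The 12 markers of fibroblasts, endothelium, leukocytes and red cells summed to 13.8 to 36.2 CPM with 1E5, 130 to 212 CPM with 3A4, 218 to 246 CPM with GW3965 and 277 to 291 CPM with DMSO in MIA PaCa-2. Of 6 tested there, 4 fell with 1E5, where 47.0% of all genes changed in either direction. COL1A2 made up most of the sum, at 15.5 ± 10.5 CPM with 1E5 and 233 ± 5.17 CPM with DMSO. The defining markers PTPRC, HBB, PECAM1, CD3E and LUM had counts of 0 in the DMSO libraries. In PANC-1 the sums were 48.1 to 88.9 CPM with 1E5 and 67.1 to 183 CPM with DMSO. The part of these markers, and of the uneven depth in MIA PaCa-2, in the results on the 9 genes was not tested.

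Among the 9 genes, levels moved together for some pairs once the mean of each line was removed. Over the 36 libraries Pearson's r of log2 CPM was 0.81 for TJP1 and OCLN, 0.79 for CLDN1 and TJP1, and 0.73 for CLDN1 and OCLN. CLDN3 and CLDN7 had r = 0.57 and CLDN1 and TJP3 -0.59. CLDN4 and F11R stayed between -0.23 and 0.18 with every other member. The libraries of a group share a treatment, and depth was uneven in MIA PaCa-2, so these values describe the set only.

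The genes most like each member were found by the same measure. After removing line means, those nearest CLDN1 were SLC35G2 (r = 0.88), RAP2B and LNX2 (0.86 each). For TJP1 they were SMIM13, CTTNBP2NL (0.93 each) and LNX2 (0.92), and for OCLN SENP5, ZDHHC2 (0.88 each) and ARFGEF2 (0.87). TJP3 was nearest to UPK3B (0.86), MTMR11 and MAP3K12 (0.81 each). For CLDN7 they were C18orf32 (0.76), MLF1 (0.72) and STX8 (0.71), and for CLDN3 PROM2 (0.71), IGFL2-AS1 and MECR (0.70 each). CLDN4 was nearest to C12orf75 (0.66), EFEMP1 (0.64) and KDM6A (0.58). CLDN12 and F11R had no gene above 0.51 and 0.52.

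Over the 12 group means, which mainly order the lines, CLDN1 was most like BACH1, FOXC1 and HECA (0.97 each), CLDN3 like MCAM (0.99), FAM234A and TMEM218 (0.97 each), and CLDN7 like NUDT16L2P (1.00), ARRDC4 and PDLIM1 (0.99 each). TJP1 was most like BHLHE40, CDKN1A and ERO1A (0.99 each), F11R like MYH14, KIAA1522 and MMP14 (0.99 each), and OCLN like IGF2R, FAM169A and ITSN2 (0.98 each). TJP3 was most like MTMR11 (0.95), PAPSS1 and UPK3B (0.93 each), and CLDN12 like MRPL34 (0.79), PSME3 and UCHL5 (0.78 each). CLDN4, alone of the 9, was most like genes known as LXR targets or of fatty acid synthesis, SREBF1 (0.85), ACACA (0.77) and ABCA1 (0.76). This rests on the group means, in which the 3 GW3965 groups are high, and was not seen among the nearest genes over the 36 libraries.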

How the data were processed

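The deposited table held raw read counts per gene for all 36 libraries. Per the submitters' processing notes, reads were handled with StringTie 1.3.1c, HISAT2 2.0.2, SAMtools 1.3 and Trim Galore 0.4.4, on build GRCh38, from a stranded total RNA kit per the labels' protocols. For the counting, the annotation and strand setting are not given in the labels or notes used here. Of 58658 lines, 407 transcript and 8 assembled-locus lines were left out (0.00396% or less of a library), and 57532 of the 58243 genes kept were matched to a symbol by gene ID.

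Counts were tested with edgeR 4.0.16 in R 4.3.3 (quasi-likelihood test, TMM scaling, filterByExpr with a minimum count of 10). Each line was fitted alone (18042, 16254 and 18544 genes tested in BxPC-3, then MIA PaCa-2, then PANC-1), and all 36 libraries together (22132 genes) for lines and for differences in response among lines. Benjamini-Hochberg adjustment covered every gene of a fit, and adjusted p under 0.05 was called. Standard errors were derived from the F statistic. Levels are CPM scaled by TMM over the 36 libraries, so the fold of a fit can differ slightly from their ratio, and intervals are 95%. Exonic lengths come from GENCODE release 29. On simulated counts, fits of 1 line recovered 10.4% to 11.9% of 1.5-fold and 35.8% to 58.2% of 2-fold changes. They recovered 98.5% to 100.0% of 4-fold changes. For changes made in MIA PaCa-2 alone, the interaction test recovered 3.0% at 1.5-fold, 9.0% at 2-fold and 90.9% at 4-fold. The simulation gave every gene the same dispersion and changed only 66 or 67 tested genes at each fold, picked among genes with ample counts. These rates therefore do not give the power of the tests on these data. A gene without a call may still have changed. DESeq2 1.42.0, RLE scaling, no filter, other sets of libraries, a replicate term and leaving out each library were alternatives. No pair of replicates agreed within sampling noise (chi-square per degree of freedom 8.62 to 155, the largest in PANC-1 with 1E5).

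The members and lists were chosen with earlier results of these data known. All 9 members are named. For each member the 3 genes with the highest correlation are named, among 10642 genes averaging 10 CPM or more. Of the wider lists, called genes averaging 2 CPM or more were ranked by log2 change. Up to 3 with the highest and 3 with the lowest are named per ligand comparison, and only some of these per line comparison. A gene of the wider lists that this rule picks is counted but not reported here by name.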

Additional observations from a re-analysis of the deposited data

Results flagged for a closer look

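Responses that differed among the 3 lines by edgeR's interaction test, over all genes tested, were seen for 5 of the 9 genes with 1E5 and 2 with 3A4. With 1E5 the adjusted p in edgeR was 9.65e-07 for CLDN1, 2.11e-04 for TJP1, 0.00273 for OCLN, 0.0145 for CLDN7 and 0.0174 for TJP3. The CLDN7 call was lost without PANC-1 DMSO replicate 1 (0.0555 in edgeR), and the TJP3 call without any of 3 MIA PaCa-2 libraries (0.0526 to 0.0710 in edgeR). The log2 change of CLDN1 with 1E5 was 2.94 in MIA PaCa-2, 0.64 in PANC-1 and -0.17 in BxPC-3. TJP1 changed by 1.44 in MIA PaCa-2, 0.15 in PANC-1 and 0.07 in BxPC-3, and OCLN by 2.14, 0.68 and -0.16 in the same order of lines. CLDN7 changed by 1.33 in PANC-1 and -0.03 in BxPC-3 and was at 0 to 10 counts in MIA PaCa-2. TJP3 changed by -2.37 in MIA PaCa-2, -0.25 in PANC-1 and 0.02 in BxPC-3. With 3A4 the adjusted p in edgeR was 2.23e-04 for CLDN1, with log2 changes of 1.92 in MIA PaCa-2, 1.10 in PANC-1 and -0.76 in BxPC-3. It was 0.00642 for TJP3, with -3.84 in MIA PaCa-2, -1.24 in PANC-1 and 0.11 in BxPC-3. Library depth was uneven in MIA PaCa-2, and its part in these differences was not tested.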

How the results depend on the processing

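The number of the 9 genes called was recomputed 252 times over the alternatives and stayed within 1.5 times in 223. With all 36 libraries in 1 fit it became 1 for 1E5 and 1 for 3A4 in PANC-1, and 4 for 3A4, 1 for GW3965 and 2 for 3A4 against 1E5 in MIA PaCa-2. DESeq2 gave 1 for GW3965, 1 for 3A4 and 1 for 3A4 against 1E5 in BxPC-3, and 4 for 3A4 and 1 for GW3965 in MIA PaCa-2. Without the filter on low counts, MIA PaCa-2 had 1 for GW3965 and 2 for 3A4 against 1E5. Leaving out each library in turn gave 3 to 6 for 1E5 and 1 to 2 for 3A4 in PANC-1, and 0 to 1 for GW3965 and 1 to 2 for 3A4 against 1E5 in MIA PaCa-2. The cause of these shifts was not tested. Of 2162 recomputed values of single genes, none that was called changed sign, 59 lost the call and 36 gained it. RLE scaling changed no call.

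With the replicate number as a block, the counts were 1 for GW3965, 1 for 3A4 and 1 for 3A4 against 1E5 in BxPC-3 and 4 for 3A4 in MIA PaCa-2. Libraries with the same number correlated weakly (median r 0.09 in BxPC-3, 0.11 in PANC-1 and 0.08 in MIA PaCa-2). Between libraries with different numbers the medians were lower, at -0.07, -0.05 and -0.05 in the same order. Not every same-number pair was over 0.1, and the numbers were not taken as pairs in the main fits. For CLDN4 with GW3965 the block gave log2 4.92 in BxPC-3 (edgeR adjusted p 0.122), 3.59 in PANC-1 (0.795) and 1.75 in MIA PaCa-2 (0.652).

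Counts over all genes moved most where few were called. Apart from leaving out each library, they ran in BxPC-3 from 6 to 340 for 3A4 (6 as reported), from 9 to 433 for 3A4 against 1E5 (26), and from 90 to 550 for GW3965 (239). With 1 library left out these were 0 to 7, 0 to 39 and 68 to 151. In MIA PaCa-2 they ran from 1085 to 3820 for 3A4 (2235) and from 22 to 255 for GW3965 (85), and with 1 library left out from 749 to 2497 and 16 to 85. In PANC-1 they ran from 903 to 3020 for 3A4 (1367) and from 7 to 91 for GW3965 (9), and with 1 library left out from 429 to 971 and 4 to 35. For 1E5 in BxPC-3 they ran from 0 to 9 (0 by edgeR, where 3.17% of genes had an unadjusted p under 0.05). For responses that differed among lines they ran from 872 to 2578 for 3A4 (1304) and from 24 to 183 for GW3965 (23), and with 1 library left out from 588 to 1931 and 14 to 39. In MIA PaCa-2, CLDN3 and CLDN7 rest on a few counts, in the deep 1E5 libraries as well as in the shallow ones. No difference between treatments was detectable there.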
